A study of Homo sapiens with 18 samples.

Results

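The collagen chain genes are the protein-coding genes whose symbol consists of COL, a number, A and a number, each of which encodes 1 chain of a collagen molecule. Symbols were taken from the GENCODE annotation of GRCh38, and 44 of the 61541 genes in each count table met this rule. They were followed by RNA sequencing in A549, a human lung adenocarcinoma line of epithelial origin with wild-type genotype, grown without treatment or with 5 mM sodium propionate (SP), the salt of a short-chain fatty acid. The 18 libraries form 6 groups of 3. One table holds untreated cells of day 3, cells given SP for 3 days and cells given SP for 12 days; the other holds untreated cells of 24 h and cells given SP for 3 h and 24 h. Day 12 was compared with the untreated cells of day 3, and 3 h of SP with the untreated cells of 24 h, so in both comparisons the effect of SP and that of time in culture cannot be told apart. Both comparisons with untreated cells in a table use the same 3 untreated libraries. The labels do not state whether the libraries of a group came from separate cultures. The study calls the untreated, 3 h and 24 h libraries of the second table biological replicates, without saying how they were cultured. For the day 3 and 12 libraries it gives 3 per group and no kind of replicate. The p-values measure the spread between these libraries, which may be technical at 3 and 12 days. Counted reads per library ranged from 14187401 to 43765330.

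Collagens are matrix proteins in which chains with a repeated glycine motif wind around each other into a helix. Fibrillar collagens build the fibres of stroma, type IV collagen forms the sheet of the basement membrane on which epithelial cells rest, type VI forms beaded filaments beside it, and type VII anchors it to the stroma. The FACIT collagens attach to the surface of fibrils, and the transmembrane collagens span the cell membrane. In tissues most fibrillar collagen is made by fibroblasts, whereas epithelial cells contribute chains of the basement membrane.

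Promoter sequences are shown first for 6 chains that rose and for COL27A1, the only one that fell, so that their composition can be set beside their counts. They were read from RefSeq on GRCh38.p14, where 32 of the 44 chains had an entry, with 44 start sites in all. Each is written from 5′ to 3′ on the strand of the gene and ends at the base before the start site, with matches on either strand to the GC box (GGGCGG), to the CCAAT box of those letters, or to the letters TATAAA of the TATA box in capitals. COL4A1 and COL4A2 lie head to head, so the 126 bases between their starts (chr13:110307158-110307283, written on the strand of COL4A2) lie before both genes; the GENCODE entry of COL4A2 starts further 5′, within the span of COL4A1. The others are the 150 bases before COL5A1 (chr9:134641653-134641802, plus strand), COL6A2 (chr21:46097962-46098111, plus strand), COL8A2 (chr1:36125223-36125372, minus strand), COL28A1 (chr7:7535874-7536023, minus strand) and COL27A1 (chr9:114155387-114155536, plus strand).
COL4A1 and COL4A2: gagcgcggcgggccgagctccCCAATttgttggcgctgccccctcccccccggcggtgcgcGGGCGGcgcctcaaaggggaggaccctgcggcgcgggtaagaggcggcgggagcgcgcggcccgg
COL5A1: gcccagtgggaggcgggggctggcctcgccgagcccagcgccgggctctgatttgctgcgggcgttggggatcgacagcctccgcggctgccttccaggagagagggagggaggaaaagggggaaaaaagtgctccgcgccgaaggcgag
COL6A2: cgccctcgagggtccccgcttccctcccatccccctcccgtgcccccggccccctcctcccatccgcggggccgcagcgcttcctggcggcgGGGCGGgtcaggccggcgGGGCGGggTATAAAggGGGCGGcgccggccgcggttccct
COL8A2: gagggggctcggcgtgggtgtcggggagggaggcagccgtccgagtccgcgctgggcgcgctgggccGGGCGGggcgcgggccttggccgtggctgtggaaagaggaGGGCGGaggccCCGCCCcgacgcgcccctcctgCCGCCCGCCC
COL28A1: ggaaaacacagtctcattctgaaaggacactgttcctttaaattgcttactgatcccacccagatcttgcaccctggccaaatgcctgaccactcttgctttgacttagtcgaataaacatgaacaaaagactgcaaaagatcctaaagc
COL27A1: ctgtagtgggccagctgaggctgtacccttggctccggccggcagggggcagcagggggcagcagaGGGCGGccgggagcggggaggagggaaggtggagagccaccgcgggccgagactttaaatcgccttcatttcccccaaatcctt

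The stretch shared by COL4A1 and COL4A2 holds 1 GC box and 1 CCAAT box. COL8A2 holds 5 GC boxes, some of which overlap, COL6A2 holds 3 GC boxes and 1 TATA box, and COL27A1 holds 1 GC box. No match to the 3 motifs lies in the windows of COL5A1 and COL28A1. In the 250 bases before each start, a GC box was present in 54.5% of the 44 collagen start sites and in 42.6% of all 35116 start sites. A CCAAT box was present in 27.3% of the collagen starts against 32% of all starts, and a TATA box in 18.2% against 10.7%. The median GC content of these windows was 64.2% for the collagens and 58% for all starts. These matches describe letters and no binding was measured.

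Most of the tested collagen chains were higher after 3 and 12 days of SP, and some were higher after 24 h. Of the 44 chains, 30 had enough reads to be tested in at least 1 table and 29 in each table, by edgeR's quasi-likelihood test with Benjamini-Hochberg adjustment over all genes and a threshold of 0.05. At 3 days of SP, 24 of the 29 tested chains were higher and 0 lower, where 25.2% of all tested genes were higher and 23.3% lower. At 12 days 21 chains were higher and 1, COL27A1, was lower, against 26.4% and 23.4% of all genes. At 24 h 11 chains were higher and 0 lower, against 16.8% and 12.0% of all genes. At 3 h 0 chains were higher and 0 lower, against 7.39% and 4.11% of all genes; DESeq2 gave 0 and 0 as well, and 1 chain, COL4A4, had an unadjusted p under 0.05. Counted over the comparisons with untreated cells, 27 chains were higher in at least 1 of them, COL27A1 was lower in 1, and COL3A1 and COL20A1 were tested and never called. The counts include chains that passed the filter on low counts only with their SP libraries. Among them were COL5A3, COL8A2, COL9A2, COL9A3 and COL28A1 at 24 h, and COL8A2, COL9A2, COL13A1 and COL14A1 at 3 and 12 days. For such chains the filter left little room for a call of lower.

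The median log2 fold change of the tested chains was 0.13 at 3 h, 0.75 at 24 h, 0.99 at 3 days and 0.70 at 12 days, while that of all tested genes was 0, −0.01, −0.02 and 0. The stricter rule of the study (adjusted p under 0.0001 and at least 2-fold, used there with DESeq2) was applied to the edgeR test. It called 8 chains at 3 days and 8 at 12 days, all higher, against 8.44% and 9.11% of all genes. At 24 h and at 3 h this rule called 0 chains in edgeR, against 0.685% and 0% of all genes, where 15 chains and 1 chain had an unadjusted p under 0.05. All 3 SP libraries exceeded all 3 untreated libraries for 27 of the 29 chains at 3 days, for 21 at 12 days, for 17 at 24 h and for 1 at 3 h; over all tested genes the share was 30.5%, 28.7%, 24.6% and 15.6%. All 3 lay below for 1 chain, COL27A1, at 3 days and at 12 days, and for 0 at 24 h and 3 h, against 30.7%, 27.3%, 19.8% and 11.7% of all tested genes. Because whole cultures were sequenced, a larger share of cells expressing a chain and more RNA of that chain per cell cannot be told apart.

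**Figure D1:**
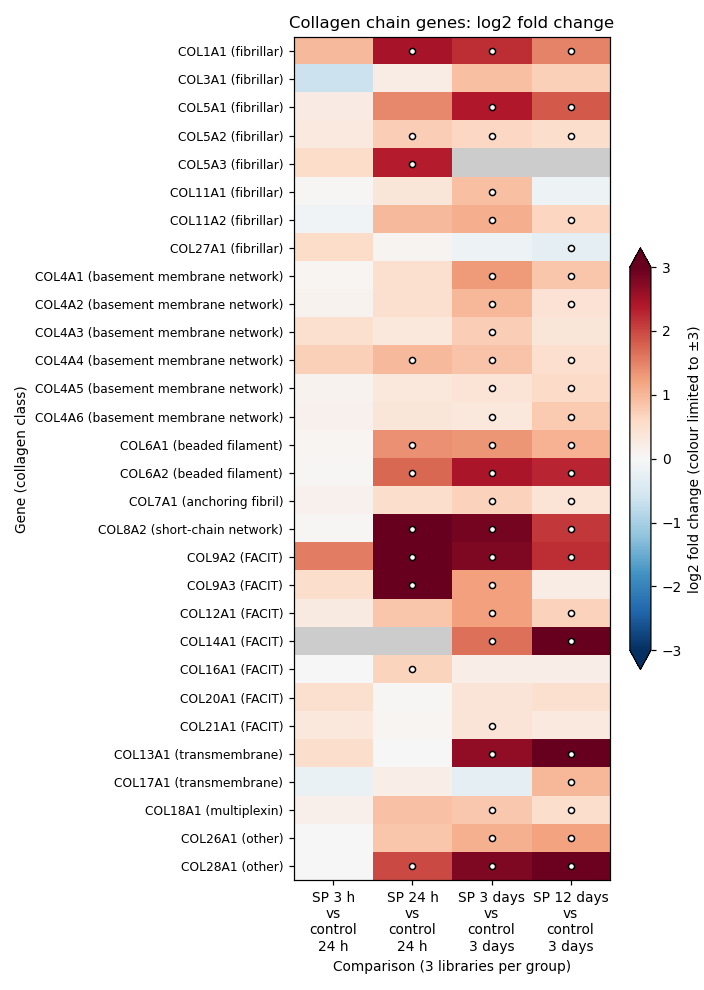
Log2 fold change of the 30 tested collagen chain genes (rows, with their class) in the 4 comparisons with untreated cells (columns, 3 libraries per group); a dot marks an adjusted p under 0.05 and grey a gene not tested in that table. Dots are absent at 3 h, number 11 at 24 h, 24 at 3 days and 22 at 12 days, and the only blue cell with a dot is COL27A1 at 12 days.

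Summed over the 44 chains, the collagen level was 1611, 1623 and 1654 CPM (counts scaled to library size with TMM factors) in the untreated cells of day 3. It was 3051, 3088 and 3084 CPM after 3 days of SP and 2458, 2364 and 2916 after 12 days. These groups do not overlap, and replicate 3 of the SP 12 days group is the highest of its group. In the other table the untreated cells of 24 h had 862, 1451 and 2300 CPM, SP 3 h had 1826, 2123 and 1293, and SP 24 h had 2432, 2680 and 3129. The untreated libraries of 24 h therefore differed among themselves, and replicate 3 lay above all 3 SP 3 h libraries and just below the lowest SP 24 h library.

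In the 3 h and 24 h table the GC content of the sequenced genes moved with the collagen sums. Weighted by reads, the mean GC content of the genes was 48.86%, 49.38% and 50.80% in the untreated replicates of 24 h, 50.12%, 50.40% and 49.06% in SP 3 h, and 50.35%, 50.78% and 51.03% in SP 24 h. Within each of these 3 groups the order of the libraries by GC content was also their order by collagen sum. In the day 3 and 12 table, GC content was 49.77%, 49.46% and 50.24% in the untreated cells, 50.16%, 50.33% and 50.45% after 3 days and 49.90%, 50.03% and 50.04% after 12 days, so that the untreated and SP libraries overlapped in GC content but not in collagen sum, and in none of its 3 groups was the order by GC content that by collagen sum. Across the 29 chains the log2 fold change at 24 h correlated with the GC content of the gene (Pearson r = 0.41, Spearman rho = 0.46), as against 0.17 and 0.16 at 3 days and 0 and 0.01 at 12 days; the chains share the same libraries and are not independent.

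**Figure D2:**
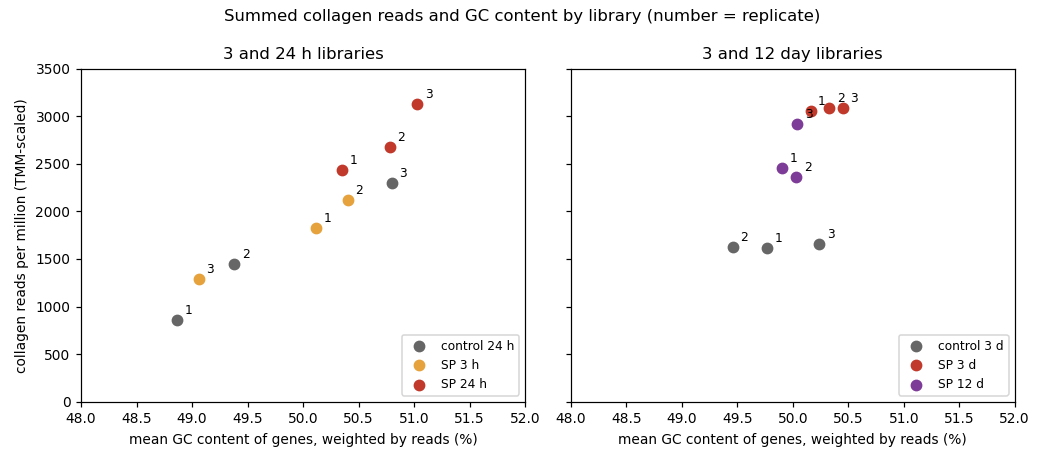
Collagen CPM, summed over 44 chain genes (vertical axis, scaled by TMM), against the mean GC content of genes weighted by reads (horizontal axis, %), 1 point per library with its replicate number. On the left, the 24 h untreated libraries spread from 862 to 2300 as GC content goes from 48.86% to 50.80%; on the right, the untreated libraries stay between 1611 and 1654 at GC contents from 49.46% to 50.24%.

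A fit with offsets for GC content and exon length per library lowered most collagen values. It shifted the median of all genes to −0.07 at 3 h, −0.13 at 24 h, −0.12 at 3 days and −0.10 at 12 days, and that of the chains to −0.03, 0.20, 0.63 and 0.61. With these offsets 19 chains were higher and 1 lower at 3 days, 17 and 1 at 12 days and 10 and 1 at 24 h. In each of them the lower chain was COL27A1. The calls lost were COL4A5, COL4A6, COL7A1, COL9A3 and COL18A1 at 3 days, COL4A2, COL7A1, COL11A2 and COL18A1 at 12 days, and COL16A1 at 24 h. Without replicate 3 of the untreated cells of 24 h, 22 chains were higher at 24 h and 3 at 3 h, the latter being COL1A1, COL13A1 and COL27A1. The share of all genes called was not determined with the offsets or without that replicate, so these counts have no background beside them. Whether GC content has a part in the collagen increase was not tested beyond these fits.

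**Figure D3:**
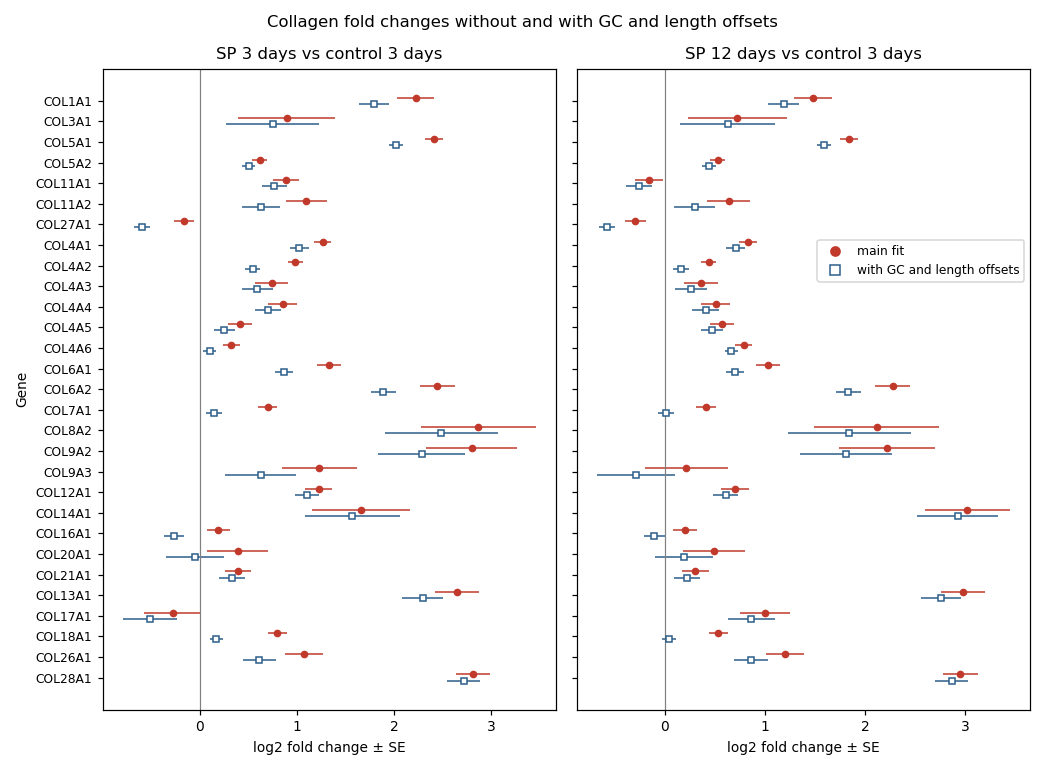
Log2 fold change ± SE of the 29 chains tested at 3 days (left) and 12 days (right), from the edgeR fit without offsets (filled circles) and from the fit with GC and length offsets (open squares). COL5A1, COL6A2, COL8A2, COL9A2, COL13A1, COL14A1 and COL28A1 stay above 1.5 in both fits, while COL7A1 and COL18A1 move to between 0.01 and 0.17. COL8A2, COL9A2, COL13A1 and COL14A1 passed the filter on low counts only with their SP libraries.

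Among the fibrillar chains, 5 of the 7 tested were higher at 3 days, 4 were higher and 1 was lower at 12 days, and 3 of the 8 tested at 24 h were higher, with class medians of 0.90, 0.64 and 0.86, where 25.2%, 26.4% and 16.8% of all genes were higher. COL5A1 (chr9:134641803-134844843, plus strand), which encodes the main chain of type V collagen that starts fibril assembly, had 1304, 1412 and 1455 normalized counts in the untreated cells of day 3. After 3 days of SP it had 7380, 7247 and 7543, and after 12 days 4790, 4560 and 5584. No SP library came near an untreated one, and the log2 fold change was 2.41 ± 0.09, adjusted p = 3.01e-11 at 3 days and 1.84 ± 0.09, adjusted p = 3.25e-10 at 12 days. In the other table COL5A1 had 2111, 5151 and 9910 in the untreated cells, 7029, 9201 and 4244 at 3 h and 12540, 16080 and 18310 at 24 h of SP. The SP 24 h libraries all lay above the untreated ones, but with the wide untreated spread the change of 1.45 ± 0.49, adjusted p = 0.0541 did not pass; without untreated replicate 3 it was 2.102 ± 0.43 and passed, and it passed in DESeq2 (1.43 ± 0.47).

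COL5A2 (chr2:189031898-189225312, minus strand) encodes the partner chain of type V collagen. It had 6140, 6279 and 6340 normalized counts in untreated cells, 9342, 9724 and 9720 at 3 days and 8511, 8752 and 9752 at 12 days, changes of 0.62 ± 0.08, adjusted p = 9.62e-06 and 0.53 ± 0.08, adjusted p = 4.48e-05. At 24 h it went from 4191, 6356 and 6814 to 9182, 9431 and 10510 (0.75 ± 0.19, adjusted p = 0.0184), a call that was lost without SP 24 h replicate 2 or 3. Both time courses thus show COL5A2 above the untreated cells in every SP library from 24 h on. COL5A3, the third type V chain, was tested at 3 h and 24 h alone, where its 1.38, 2.76 and 10.98 untreated counts stood against 21.1, 33.9 and 33.5 at 24 h (2.36 ± 0.57, adjusted p = 0.0138). COL5A3 passed the filter on low counts only with its SP libraries. It shares 270 bp of exon with another gene, and without SP 24 h replicate 2 its edgeR adjusted p was 0.0559.

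COL1A1 (chr17:50184101-50201632, minus strand), the major chain of the type I collagen of scar and stroma, rose at 3 days from 238, 235 and 242 to 1010, 1128 and 1197 normalized counts (2.22 ± 0.19, adjusted p = 2.68e-06). At 12 days its libraries held 565, 516 and 913 (1.48 ± 0.19, adjusted p = 6.38e-05). All SP libraries were above the untreated ones, and the 12 day libraries were below those of day 3. In the other table it had 146, 335 and 558 in untreated cells, 606, 985 and 468 at 3 h and 1594, 2312 and 1920 at 24 h, with a change of 2.48 ± 0.45, adjusted p = 0.00412 at 24 h and of 0.98 ± 0.44, adjusted p = 0.202 at 3 h. The 3 h libraries overlapped the untreated ones, and those of 24 h did not.

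COL11A1, a chain of the cartilage-type fibril collagen XI, had 406, 496 and 413 normalized counts in untreated cells, 859, 774 and 802 at 3 days and 334, 339.9 and 494 at 12 days. It was therefore higher at 3 days (0.89 ± 0.14, adjusted p = 6.51e-05) and at 12 days had 2 libraries below the untreated range and 1 within it (−0.16 ± 0.14, adjusted p = 0.349). COL11A2, another type XI chain, had 40.4, 57.4 and 56.3 in untreated cells, 119, 96.4 and 112 at 3 days and 86.4, 56.5 and 94.8 at 12 days (1.10 ± 0.21, adjusted p = 0.00048 and 0.64 ± 0.22, adjusted p = 0.0217). The value of 1 SP 12 days library lay within the untreated range, and the 12 day call was lost without untreated replicate 1 or without SP 12 days replicate 1 or 3. At 24 h COL11A2 did not pass (0.97 ± 0.33, adjusted p = 0.0537) and passed with the replicate number as a block (1.01 ± 0.29).

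COL27A1 (chr9:114155537-114312511, plus strand), a fibrillar chain of cartilage, was the exception in direction. It had 948, 952 and 949.6 normalized counts in untreated cells, 877, 822 and 846 at 3 days and 704, 692 and 920.5 at 12 days. Every SP library of 3 and 12 days was below every untreated one of day 3, with differences of −0.16 ± 0.10, adjusted p = 0.202 at 3 days and −0.30 ± 0.10, adjusted p = 0.0242 at 12 days. Leaving out untreated replicate 1 or 3, or SP 12 days replicate 1 or 2, gave an adjusted p between 0.051 and 0.0827 at 12 days. With the GC and length offsets it fell by 0.60 at 3 days (adjusted p = 4.28e-05 in edgeR), by 0.58 at 12 days and by 0.50 at 24 h on the log2 scale, and the value at 24 h without offsets was 0.08 ± 0.26, adjusted p = 0.841. At 3 h the difference was upward and did not pass, with 1079, 1044 and 753 against 402, 663 and 886 untreated (0.56 ± 0.26, adjusted p = 0.225). COL3A1, the fibrillar chain of elastic tissues, was low, with means between 7.07 and 44.99 normalized counts over the 6 groups, and its differences lay between −0.64 at 3 h and 0.90 at 3 days without a call.

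All 6 chains of type IV collagen, the network of the basement membrane, were tested. At 3 days 6 were higher, at 12 days 5 and at 24 h 1, with class medians of 0.80, 0.54 and 0.42. Over all genes 25.2%, 26.4% and 16.8% were higher, so the 1 chain at 24 h is no more than that share. COL4A1 (chr13:110148963-110307157, minus strand), a chain of the type IV network found in nearly all basement membranes, had 762, 799.5 and 779.6 normalized counts in untreated cells, 1836, 1866 and 1930 at 3 days and 1465, 1481 and 1221 at 12 days. COL4A2 (chr13:110305812-110513209, plus strand), its partner from the shared promoter printed above, had 3187, 3080 and 3340, then 6384, 6265 and 6387 and 4333, 4469 and 4192. For both genes the 3 groups were fully separate, with the 12 day libraries between the others. COL4A1 changed by 1.27 ± 0.09, adjusted p = 1.2e-08 and 0.83 ± 0.09, adjusted p = 1.11e-06, and COL4A2 by 0.99 ± 0.07, adjusted p = 3.03e-08 and 0.44 ± 0.07, adjusted p = 0.000134.

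In the other table COL4A1 had 1586, 2464 and 4729 normalized counts in untreated cells, 2953, 3461 and 2798 at 3 h and 3501, 3419 and 5391 at 24 h. COL4A2 had 4048, 6811 and 13110, 9108, 10110 and 6508 and 9474, 10680 and 13440. The groups overlapped for both chains, which differed by 0.49 ± 0.35, adjusted p = 0.324 and 0.49 ± 0.37, adjusted p = 0.347 at 24 h. Without untreated replicate 3 the 24 h values were 1.01 ± 0.24 and 1.04 ± 0.26 and both passed.

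COL4A3 and COL4A4 form a second head-to-head pair (chr2:227164624-227314792, plus strand, and chr2:227002714-227164453, minus strand) whose chains assemble with that of COL4A5 in the lung alveolus and kidney. COL4A3 had 226, 246 and 232 normalized counts in untreated cells, 408, 353 and 414 at 3 days and 267, 228 and 404 at 12 days, and passed at 3 days (0.74 ± 0.17, adjusted p = 0.00242) but not at 12 days (0.36 ± 0.17, adjusted p = 0.0916). It shares 838 bp of exon with the noncoding gene MFF-DT. COL4A4 had 314, 301 and 324 in untreated cells, 569.8, 552 and 575 at 3 days and 426, 335 and 570.1 at 12 days (0.85 ± 0.15, adjusted p = 0.000213 and 0.51 ± 0.15, adjusted p = 0.00967). All 12 day libraries of COL4A4 were above the untreated ones, whereas 1 of those of COL4A3 was not. At 24 h COL4A4 went from 133, 270.3 and 255 to 355, 528 and 417 (0.98 ± 0.29, adjusted p = 0.0312), a call lost without untreated replicate 1 or SP 24 h replicate 2 or 3.

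COL4A5 and COL4A6 are the X-linked pair (chrX:108439838-108697545, plus strand, and chrX:108155607-108439497, minus strand). COL4A5 had 1997, 2158 and 2016 normalized counts in untreated cells, 2651, 2776 and 2794 at 3 days and 2759, 2565 and 3847 at 12 days (0.41 ± 0.12, adjusted p = 0.0101 and 0.57 ± 0.12, adjusted p = 0.00106). COL4A6 had 1964, 1950 and 1977, 2313, 2402 and 2674 and 3153, 3301 and 3709 (0.33 ± 0.08, adjusted p = 0.00439 and 0.79 ± 0.08, adjusted p = 1.37e-06). No SP library of either gene overlapped the untreated ones, and COL4A6 was highest at 12 days in all 3 libraries. At 24 h the pair did not pass (0.32 ± 0.15, adjusted p = 0.126, and 0.36 ± 0.22, adjusted p = 0.241).

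Type VI collagen, the beaded filament next to basement membranes, was represented by the tandem genes COL6A1 (chr21:45981770-46005050) and COL6A2 (chr21:46098112-46132848), both on the plus strand and both higher at 24 h, 3 days and 12 days. COL6A1 had 454, 438 and 498 normalized counts in untreated cells, 1061, 1229 and 1204 at 3 days and 839.7, 846 and 1156 at 12 days (1.33 ± 0.12, adjusted p = 2.7e-07 and 1.04 ± 0.12, adjusted p = 3.47e-06). COL6A2 had 224, 216 and 311, 1313, 1412 and 1363 and 1142, 959.5 and 1533 (2.44 ± 0.18, adjusted p = 5.17e-07 and 2.28 ± 0.18, adjusted p = 8.37e-07). No SP library overlapped the untreated ones. At 24 h COL6A1 went from 590, 787 and 1317 to 2266, 2030 and 2713 (1.38 ± 0.30, adjusted p = 0.00969). COL6A2 went from 245, 327 and 692 to 1383, 1159 and 1669 (1.73 ± 0.34, adjusted p = 0.00617). At 3 h both overlapped the untreated cells, with changes of 0.05 ± 0.30 and 0.04 ± 0.34. COL6A2 thus moved further than its neighbour at 3 and 12 days, by values that were not tested against each other.

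COL7A1 (chr3:48564073-48595329, minus strand), which encodes the anchoring fibril that ties the basement membrane to stroma, had 3519, 3506 and 3594 normalized counts in untreated cells, 5743, 5575 and 5938 at 3 days and 4650, 3948 and 5549 at 12 days. Its changes were 0.70 ± 0.10, adjusted p = 3.53e-05 and 0.41 ± 0.10, adjusted p = 0.003, and 0.15 ± 0.08 and 0.01 ± 0.08 with the GC and length offsets, where neither passed. COL18A1 (chr21:45405165-45513720, plus strand), the precursor of endostatin in basement membranes, had 6186, 6055 and 6182 in untreated cells, 10990, 11280 and 9835 at 3 days and 8531, 7926 and 10170 at 12 days (0.80 ± 0.10, adjusted p = 4.92e-06 and 0.53 ± 0.10, adjusted p = 0.000252). All SP libraries of both genes exceeded the untreated ones. With the offsets COL18A1 changed by 0.17 ± 0.07 and 0.04 ± 0.07. It shares 1563 bp of exon with SLC19A1 on the opposite strand, and reads of the pair cannot be assigned without strand information. At 24 h COL18A1 (0.89 ± 0.31, adjusted p = 0.0602, though it passed in DESeq2 at 0.87 ± 0.32) and COL7A1 (0.52 ± 0.43, adjusted p = 0.387) did not pass.

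Of the 7 FACIT chains tested at 3 days 5 were higher, and 3 at 12 days. At 24 h 3 of 6 were higher. The class medians at 3 days, 12 days and 24 h were 1.22, 0.49 and 0.75, where 25.2%, 26.4% and 16.8% of all genes were higher. These counts include COL9A2 at all of these times, COL9A3 at 24 h and COL14A1 at 3 and 12 days. There these chains passed the filter on low counts only with their SP libraries, which left little room for a call of lower. COL12A1, a fibril-associated collagen of dense connective tissue, had 367, 366 and 347 normalized counts in untreated cells, 832, 801 and 891 at 3 days and 515, 486 and 753 at 12 days (1.22 ± 0.14, adjusted p = 3.69e-06 and 0.70 ± 0.14, adjusted p = 0.000619). It stayed above the untreated cells in every library of both times. COL9A2 and COL9A3 are chains of type IX collagen, which decorates cartilage fibrils. COL9A3 had 0, 23.4 and 5.49 normalized counts in the untreated cells of 24 h against 67.6, 109 and 92.5 after 24 h of SP (3.27 ± 0.64, adjusted p = 0.00556). COL9A2 had 0, 1.38 and 2.75 against 37.0, 45.6 and 44.95 (4.67 ± 0.63, adjusted p = 0.00076), the largest log2 value among the chains at 24 h, resting on few untreated reads.

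At 3 days COL9A2 had 47.1, 49.3 and 38.7 normalized counts against 5.16, 6.76 and 7.43 in untreated cells (2.80 ± 0.47, adjusted p = 0.00017), and at 12 days 18.2, 16.1 and 53.4 (2.22 ± 0.48, adjusted p = 0.00144). COL9A3 had 39.5, 49.3 and 30.1 against 14.6, 20.3 and 15.9 at 3 days (1.23 ± 0.39, adjusted p = 0.0162), a call lost without untreated replicate 1 or 3 or SP 3 days replicate 2, and 10.2, 11.7 and 34.2 at 12 days (0.21 ± 0.42, adjusted p = 0.701). In both genes replicate 3 of SP 12 days was far above replicates 1 and 2. COL14A1, a FACIT of skin and tendon that was tested in the day 3 and 12 table alone, was low, with 2.58, 2.25 and 4.25 in untreated cells, 8.77, 10.9 and 9.68 at 3 days and 18.2, 22.4 and 34.2 at 12 days (1.66 ± 0.50, adjusted p = 0.0123 and 3.02 ± 0.42, adjusted p = 2.24e-05). Without untreated replicate 1 its adjusted p at 3 days was 0.0503.

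COL16A1, a minor fibril-associated collagen, was higher at 24 h, with 271, 235 and 349 normalized counts against 144, 169.6 and 219 (0.68 ± 0.19, adjusted p = 0.0276), a call lost with the GC and length offsets (0.04 ± 0.18), with 2 groups in the fit, and without untreated replicate 1 or 2 or SP 24 h replicate 1 or 3. At 3 and 12 days it did not pass (0.19 ± 0.12 and 0.20 ± 0.12; 168, 141 and 171 untreated, 185, 181 and 184 and 181, 186 and 186 with SP). COL21A1 was higher at 3 days by a small amount, with 370.4, 399 and 372 against 293, 277 and 299.5 (0.39 ± 0.13, adjusted p = 0.0234), and had 324, 299 and 448 at 12 days (0.30 ± 0.13, adjusted p = 0.0673). Its 3 day call was lost without untreated replicate 1 or 2 or any 1 of the SP 3 days libraries. COL20A1 ranged from group means of 9.78 to 45.9 normalized counts over the 6 groups and was not called in any comparison with untreated cells, with differences from 0.04 to 0.49.

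The chains outside these classes include several of low level in untreated cells. Some of them, such as COL8A2 and, at 24 h, COL28A1, passed the filter on low counts only through their SP libraries. COL28A1 (chr7:7356203-7535873, minus strand), a chain with von Willebrand factor domains, had 30.1, 31.5 and 30.8 normalized counts in untreated cells, 215, 203 and 232 at 3 days and 226, 197 and 291 at 12 days (2.81 ± 0.18, adjusted p = 5.15e-09 and 2.95 ± 0.18, adjusted p = 2.32e-09). At 24 h it went from 5.53, 15.2 and 17.4 to 52.8, 44.98 and 59.0 (1.98 ± 0.33, adjusted p = 0.0023), and at 3 h it had 12.9, 15.2 and 10.6 (−0.01 ± 0.39). The groups did not overlap from 24 h on. COL8A2, a short-chain collagen of the cornea and vessel wall, had 5.53, 2.76 and 2.75 in the untreated cells of 24 h, 0, 5.08 and 4.25 at 3 h and 52.8, 59.6 and 63.5 at 24 h (3.996 ± 0.43, adjusted p = 0.000243). At 3 days it had 23.01, 20.8 and 17.2 against 1.72, 2.25 and 4.25 (2.87 ± 0.59, adjusted p = 0.000822), and at 12 days 6.82, 5.38 and 22.3 (2.12 ± 0.63, adjusted p = 0.0106), where without SP 12 days replicate 3 the change was 1.12 ± 0.62 and did not pass; it did not pass without untreated replicate 1 either.

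COL26A1 had 38.7, 33.8 and 38.2 normalized counts in untreated cells, 80.0, 70.1 and 83.9 at 3 days and 78.4, 72.6 and 104 at 12 days (1.07 ± 0.20, adjusted p = 0.000301 and 1.20 ± 0.19, adjusted p = 8.37e-05), with no overlap. At 24 h it had 81.3, 119 and 107 against 30.4, 69.0 and 71.4 (0.84 ± 0.29, adjusted p = 0.0585), which passed with the replicate number as a block (0.86 ± 0.25) and in DESeq2 (0.83 ± 0.32). COL13A1, a transmembrane collagen of cell adhesion sites, had 13.8, 14.6 and 10.6 in untreated cells, 75.6, 86.5 and 84.9 at 3 days and 102, 87.0 and 121 at 12 days (2.65 ± 0.23, adjusted p = 1.4e-07 and 2.98 ± 0.22, adjusted p = 2.4e-08). At 24 h it had 33.8, 42.6 and 48.5 against 30.4, 31.7 and 62.2 (−0.02 ± 0.30, adjusted p = 0.961), with overlapping groups. COL17A1, the transmembrane collagen of hemidesmosomes, had 26.6, 16.9 and 20.2 in untreated cells, 15.3, 16.4 and 21.5 at 3 days (−0.28 ± 0.29, adjusted p = 0.463) and 34.1, 46.6 and 47.8 at 12 days (1.001 ± 0.25, adjusted p = 0.00392). At 24 h it had 120.4, 98.1 and 98.7 against 104, 55.2 and 115 and did not pass (0.20 ± 0.32).

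**Figure D4:**
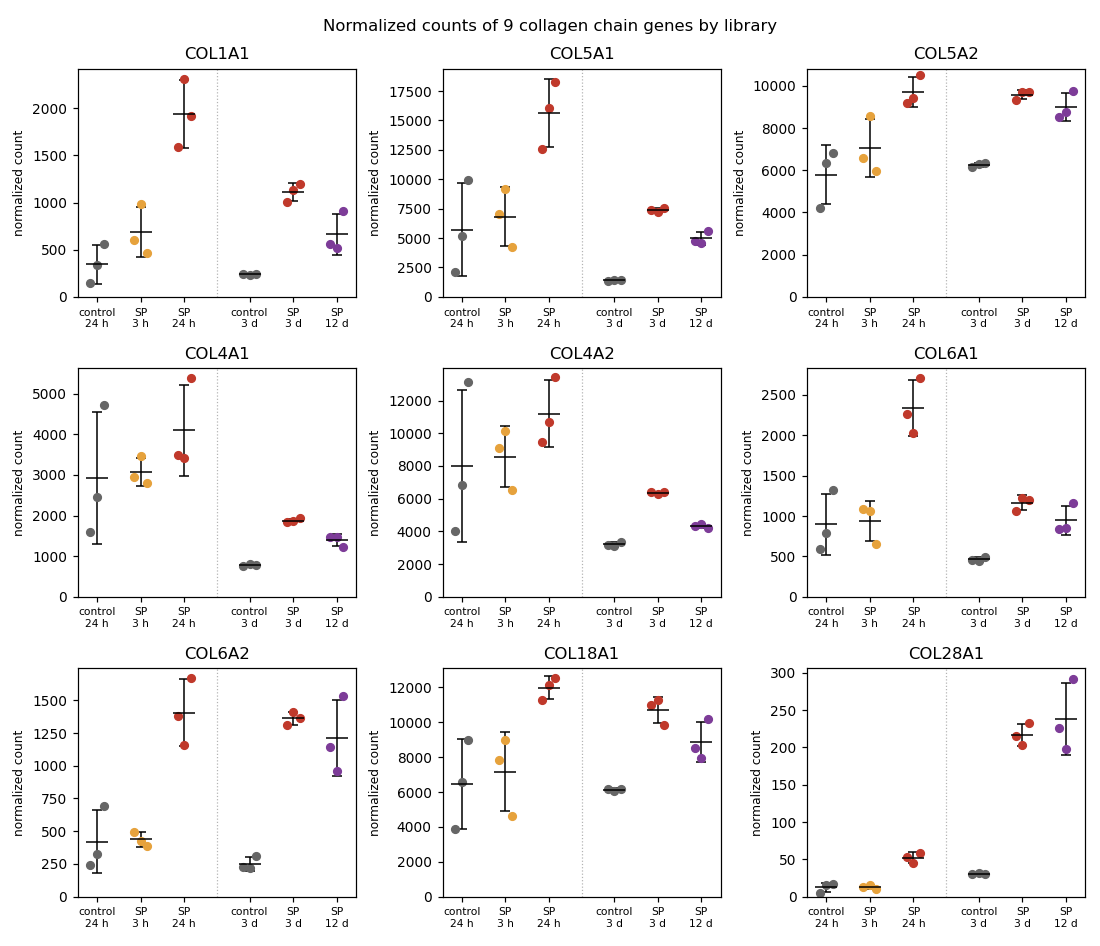
Normalized counts (vertical axes, starting at 0) of 9 collagen chain genes in the 6 groups, 1 point per library, with a horizontal line for the mean and bars for the SD (n = 3); the dotted line separates the tables, whose scales are not comparable. At 3 and 12 days every SP point lies above every untreated point, and at 24 h the untreated points spread widely, as for COL5A1 from 2111 to 9910.

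The remaining 14 chains had too few reads to be tested in either table. COL19A1 had 0 reads in all 18 libraries, which allows up to 3 reads in a library. The highest count in any library was 1 read for COL1A2, COL6A5 and COL8A1, 2 for COL9A1 and COL25A1, 3 for COL6A6, 4 for COL23A1, 5 for COL10A1, 10 for COL15A1, 11 for COL24A1, 15 for COL22A1, 21 for COL2A1 and 22 for COL6A3. Several of these encode partners of chains that rose. The usual type I molecule joins chains of COL1A1 and COL1A2, and COL1A2 had 0 reads in all 9 libraries of the day 3 and 12 table, while COL1A1 had 922, 1030 and 1113 reads at 3 days. Type VI molecules need COL6A3, or COL6A5 or COL6A6, beside COL6A1 and COL6A2. COL6A3 had 3, 3 and 1 reads in untreated cells, 2, 1 and 2 at 3 days, and 2, 3 and 7 at 12 days; at 24 h it had 2, 2 and 6 without and 8, 19 and 22 with SP. COL9A1 and COL8A1, the partners of COL9A2 with COL9A3 and of COL8A2, had at most 2 reads and 1 read. The protein was not measured.

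Levels between chains were compared as RPKM, that is, reads scaled to exon length and library size. In the untreated cells of day 3 COL5A2 stood first with 47.5 ± 0.779 (SD, n = 3), followed by COL18A1 with 40.4 ± 0.489, COL7A1 with 17.7 ± 0.239, COL4A6 with 11.8 ± 0.0790, COL4A5 with 9.64 ± 0.411, COL4A2 with 9.25 ± 0.377 and COL5A1 with 6.93 ± 0.389. COL4A5 and COL4A2 did not differ beyond their spread. After 3 days of SP, COL5A2 had 72.9 ± 1.67 and COL18A1 70.3 ± 5.01 RPKM, which did not differ beyond their spread, and COL5A1 with 36.8 ± 0.739 stood above COL7A1 with 28.7 ± 0.908. COL5A2, COL18A1 and COL7A1 made up 27.9%, 23.7% and 10.4% of the summed collagen RPKM in untreated cells and 22.7%, 21.9% and 8.96% at 3 days. COL5A1 went from 4.06% ± 0.18 to 11.5% ± 0.30 of this sum, and to 9.03% ± 0.15 at 12 days.

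The proportions of partner chains differed between groups for some of 5 pairs and overlapped for others, given here as ratios of RPKM with no test. COL5A1 to COL5A2 was 0.139, 0.147 and 0.151 in the untreated cells of day 3, 0.518, 0.489 and 0.509 at 3 days and 0.369, 0.342 and 0.375 at 12 days, without overlap between groups. In the other table it was 0.330, 0.531 and 0.954 in untreated cells and 0.896, 1.12 and 1.14 at 24 h, where the groups overlap. COL6A1 to COL6A2 was 1.95, 1.95 and 1.54 in untreated cells, 0.779, 0.839 and 0.851 at 3 days and 0.708, 0.850 and 0.727 at 12 days, so the order of this pair in every SP library of that table was the reverse of that in untreated cells. COL4A1 to COL4A2, the pair with a shared promoter, was 0.321 ± 0.018 in untreated cells, 0.389 ± 0.010 at 3 days and 0.421 ± 0.033 at 12 days, and among the 3 h and 24 h libraries it was 0.488 ± 0.023 in untreated cells, 0.480 ± 0.074 at 3 h and 0.478 ± 0.054 at 24 h. COL4A5 to COL4A6 was 0.819 ± 0.040 in untreated cells, 0.872 ± 0.048 at 3 days and 0.701 ± 0.103 at 12 days, with overlapping groups. COL4A3 to COL4A4 was 0.722 ± 0.055, 0.665 ± 0.044 and 0.646 ± 0.040, where the groups overlap.

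The times of SP were also compared directly. At 24 h against 3 h, 10 chains were higher and 0 lower, where 11.7% of all genes were higher and 8.40% lower. At 12 days against 3 days, 3 chains were higher and 6 lower, where 4.46% of all genes were higher and 3.65% lower. The chains lower at 12 days were COL1A1, COL4A1, COL4A2, COL5A1, COL11A1 and COL12A1, and those higher were COL4A6, COL14A1 and COL17A1. The number lower was 19 without SP 12 days replicate 3, which had the highest collagen sum of its group. The share of all genes lower was not determined for that fit. These comparisons share their libraries with those against untreated cells.

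Genes that make collagen did not all follow the chains. Of 36 listed genes of collagen biosynthesis (hydroxylases, chaperones, propeptide proteases and cross-linking enzymes), 1 of the 32 tested was higher and 0 lower at 3 h, 11 were higher and 4 lower at 24 h, 19 of 33 were higher and 3 lower at 3 days, and 15 higher and 3 lower at 12 days. Over all tested genes 7.39% were higher and 4.11% lower at 3 h, 16.8% and 12.0% at 24 h, 25.2% and 23.3% at 3 days, and 26.4% and 23.4% at 12 days, so the number lower at 24 h was near that share. SERPINH1, which encodes HSP47, the chaperone dedicated to collagen in the endoplasmic reticulum, had 2861, 2686 and 3242 normalized counts in untreated cells, 1409, 1520 and 1452 at 3 days and 1275, 1420 and 1315 at 12 days. It thus fell in every SP library (−1.004 ± 0.08, adjusted p = 1.31e-07, and −1.13 ± 0.08, adjusted p = 3.13e-08), and at 24 h too (−0.55 ± 0.13, adjusted p = 0.0114). CRTAP, part of the prolyl 3-hydroxylase complex, fell by 0.30 at 3 days on the log2 scale (edgeR adjusted p = 0.00624). PXDN, peroxidasin, which forms the sulfilimine cross-link of type IV collagen, had 373, 424 and 482 in untreated cells, 2067, 2103 and 2287 at 3 days and 2767, 2551 and 2778 at 12 days (2.34 ± 0.10, adjusted p = 7.38e-11, and 2.66 ± 0.10, adjusted p = 2.01e-11). SPARC, a matrix protein that binds collagen, rose by 2.33 ± 0.17, adjusted p = 7.35e-08 at 3 days, and P4HA2, a prolyl 4-hydroxylase subunit, by 0.58 ± 0.08, adjusted p = 2.4e-05.

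Of 12 listed collagen receptors, 0 of the 10 tested were higher and 0 lower at 3 h, 2 higher and 0 lower at 24 h, 5 of 11 higher and 2 lower at 3 days, and 5 higher and 3 lower at 12 days. The numbers higher at 24 h and lower at 3 and 12 days were near the shares of all genes (16.8%, 23.3% and 23.4%). At 3 and 12 days 25.2% and 26.4% of all genes were higher. At 3 h 7.39% of all genes were higher and 4.11% lower, and at 24 h 12.0% were lower. ADGRG1, a receptor of type III collagen, had 1869, 1845 and 2168 normalized counts in untreated cells, 5904, 6293 and 7064 at 3 days and 5857, 5376 and 6080 at 12 days (1.71 ± 0.10, adjusted p = 1.24e-09 at 3 days). ITGA10, a collagen-binding integrin subunit, had 222, 202 and 252, then 28.5, 35.0 and 46.2 and 23.9, 29.6 and 49.4, and fell (−2.62 ± 0.22, adjusted p = 1.47e-07 at 3 days). These receptors moved in opposite directions, without overlap between SP and untreated libraries. DDR1, MRC2 and ITGA1 changed at 3 days by 0.37 ± 0.08, 0.81 ± 0.13 and 0.90 ± 0.32, all passing.

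Of 20 listed matrix proteins that bind collagen, 9 were tested: 0 were higher and 0 lower at 3 h, 3 and 0 at 24 h, 5 and 2 at 3 days, and 5 and 4 at 12 days. The number lower at 3 days was near the 23.3% of all genes, while 25.2% of all genes were higher. Over all genes 7.39% were higher and 4.11% lower at 3 h, and 16.8% and 12.0% at 24 h. At 12 days these shares were 26.4% and 23.4%. NID1 and NID2, the nidogens that link type IV collagen to laminin, rose at 3 days by 2.09 ± 0.13, adjusted p = 3.89e-09 and 1.43 ± 0.12, adjusted p = 1.43e-07. NID1 had 223, 270.3 and 248 normalized counts in untreated cells and 1020, 1045 and 1087 at 3 days, and NID2 had 209, 265 and 296 and 668, 626 and 769. TNXB, tenascin X, rose by 1.70 ± 0.21 and HSPG2, perlecan of the basement membrane, by 1.05 ± 0.10 at 3 days. THBS1, thrombospondin 1, fell by 0.65 at 3 days and by 0.94 at 12 days on the log2 scale (edgeR adjusted p = 1.26e-05 and 2.42e-07).

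Markers of cell types were followed beside the collagens. The epithelial markers KRT8, KRT18, KRT19, EPCAM and CDH1, which check the label of A549, were all higher at 24 h, 3 days and 12 days. Over all tested genes 16.8%, 25.2% and 26.4% were higher at these times. Their summed normalized counts were 107800 to 138900 in the untreated cells of day 3, 209700 to 225500 at 3 days and 197900 to 275900 at 12 days. Of 8 fibroblast and mural cell markers, 4 were tested at 3 days, where THY1 and LUM were higher and RGS5 was lower. At 3 days 23.3% of all tested genes were lower, so the 1 lower marker is near that share. The sum of these 8 markers was 92.0 to 107 in untreated cells, 588 to 692 at 3 days and 690 to 714 at 12 days. Most of it came from THY1, which had 45.5, 58.6 and 73.3 normalized counts in untreated cells and 482, 522 and 589 at 3 days. POSTN had 0 reads in all libraries, DCN 0 in the untreated cells of day 3 and 9 in sum at 3 days, and FAP at most 1 in sum in a group. The endothelial sum was 43.8 to 51.8 in untreated cells and 32.9 to 41.9 at 3 days, and the immune sum 11.3 to 12.9 and 4.38 to 11.8, with CD3E at 0 throughout. Of the endothelial markers 2 were tested at 3 days and CDH5 was lower, and of the immune markers 1 was tested and was not called. At 24 h, THY1 was among 2 fibroblast and mural markers that were higher. THY1 was higher at 3 h as well (1.15 ± 0.19, edgeR adjusted p = 0.0055), where 7.39% of all tested genes were higher. The part of THY1-expressing or other cells in the collagen increase was not tested.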

How the data were processed

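The 18 libraries were made from total RNA of A549 cells and sequenced in pairs of reads. Per the submitters' processing notes and the study's methods, the authors checked reads with FastQC, aligned them to GRCh38 with STAR 2.7.9a, counted them per gene with featureCounts and tested with DESeq2 1.36.0 in R 4.2.1; strand and multimapping settings are not given in the sources used here. The deposited values are raw counts per gene, in 2 tables of 61541 genes. Symbols came from GENCODE v44, which matched 61369 gene IDs.

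Each table was fitted by itself in R 4.3.3 with edgeR 4.0.16: TMM factors, filterByExpr with a minimum count of 10, and the quasi-likelihood test over 17775 genes (3 and 12 days) or 17377 genes (3 and 24 h), with Benjamini-Hochberg adjustment. Normalized counts are reads scaled to the mean effective library size of the table. Log2 fold changes are given ± SE, and every adjusted p in the text is from this test. The median SE was 0.13 at 3 days and 0.20 at 24 h. The scripts were tested on simulated data. Alternatives were DESeq2 1.42.0, RLE factors, no filter, a minimum count of 50, 2 groups alone, the replicate number as a block, GC content and length offsets, and leaving out each library.

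The chains and the further lists were chosen with earlier results of these data known. Every chain called in at least 1 comparison with untreated cells was to be named with values, those tested and not called with a range, and those not tested with their highest count; of each further list up to 5 genes were named by rank sum. Same-numbered libraries of untreated cells and SP 24 h deviated together (r = 0.499, 0.17 and 0.504), while differently numbered ones ranged from −0.546 to 0.175. For SP 3 h (−0.0863, −0.0278 and −0.592) and for 3 and 12 days (−0.0101 to 0.162) same-numbered libraries did not deviate together. Whether the numbers pair the samples cannot be told from these values. The main fit had no block, and the replicate number was a block in alternatives alone.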

Additional observations from a re-analysis of the deposited data

Results flagged for a closer look

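Some chains differed between the 2 times of SP within a table, by edgeR's quasi-likelihood test of that difference. From 3 h to 24 h these log2 differences were upward without GC content offsets: COL1A1 by 1.498 ± 0.43, COL5A3 by 1.82 ± 0.54, COL6A1 by 1.32 ± 0.30, COL6A2 by 1.68 ± 0.34, COL8A2 by 3.95 ± 0.42, COL9A2 by 3.14 ± 0.51, COL9A3 by 2.75 ± 0.60, COL11A2 by 1.07 ± 0.33, COL16A1 by 0.68 ± 0.19 and COL28A1 by 1.99 ± 0.33. From 3 days to 12 days COL1A1 by −0.74 ± 0.18, COL4A1 by −0.44 ± 0.08, COL4A2 by −0.55 ± 0.07, COL5A1 by −0.57 ± 0.09, COL11A1 by −1.05 ± 0.14 and COL12A1 by −0.52 ± 0.13 went down, and COL4A6 by 0.46 ± 0.08, COL14A1 by 1.36 ± 0.34 and COL17A1 by 1.28 ± 0.27 went up. With GC content and length offsets, COL11A2 (0.68 ± 0.30) and COL16A1 (0.29 ± 0.18) no longer passed at 24 h against 3 h, COL13A1 (−0.86 ± 0.28) and COL27A1 (−0.81 ± 0.16) were lower there, and COL4A1 (−0.32 ± 0.10) no longer passed at 12 days against 3 days. Since no untreated cells of 3 h or of 12 days were compared, SP and time in culture cannot be told apart in these values.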

How the results depend on the processing

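No log2 fold change of a called chain changed sign under any alternative, and DESeq2, RLE factors, no filter and the replicate block kept all 57 calls of chains against untreated cells; GC content and length offsets kept 47 of 57. The study's cut-offs were applied to the edgeR fit alone, whereas the study used them with DESeq2. In edgeR they called 0 chains higher at 24 h, 8 at 3 days and 8 at 12 days, with 0 lower at 12 days. They called 0 changed at 24 h against 3 h or at 12 days against 3 days, where the share of all genes called by them was not determined. GC content and length offsets called 1 chain lower at 24 h and 1 at 3 days, with or without the replicate block, and with the block 1 higher at 3 h (COL4A4, 0.64). With the replicate block alone 13 chains were higher at 24 h, and no other call against untreated cells was changed by it. A minimum count of 50 left 6 chains changed at 24 h against 3 h, where 23 were tested, and no filter gave 14 at 12 days against 3 days, where 41 were tested. Leaving out 1 library at a time gave 0 to 3 chains higher at 3 h and 8 to 22 at 24 h, 0 to 1 lower at 3 days and 0 to 2 lower at 12 days, 4 to 13 changed at 24 h against 3 h, and 6 to 22 at 12 days against 3 days. The highest values of 3 and 22 chains higher came without untreated 24 h replicate 3, and that of 22 changed at 12 days without SP 12 days replicate 3; the cause was not tested. The wider spread of the 24 h table (median SE 0.20 against 0.13) limits its calls, and the 14 chains that did not pass the filter on low counts were not compared. Apart from the study's cut-offs in the comparisons with untreated cells, the share of all genes called was not determined for the alternatives. Their counts therefore have no background beside them.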
